A study of Mus musculus with 36 samples.

Results

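The 10 genes described here mark cerebellar granule cells, the small excitatory neurons that fill the inner layer of the cerebellar cortex: Gabra6, Grin2c, Cbln1, Cbln3, Fat2, Neurod1, Zic1, Zic2, Barhl1 and Etv1. They were taken by gene symbol, and all 10 were counted and tested at every age, among 17916, 17229 and 17224 genes tested at 1, 2 and 3 months. Mice lacking the lysosomal protease tripeptidyl-peptidase 1 (Tpp1-/-, gene-targeted, a model of the childhood neurodegenerative disease late infantile neuronal ceroid lipofuscinosis) were compared with unaffected siblings at 1, 2 and 3 months of age, in the cerebellum (Cb) and in the combined forebrain and midbrain (F/M). Each group held 3 mice, giving 36 libraries of poly(A) RNA with 10609896 to 29942380 counted reads. Controls were wild type, except that control replicate 3 at 1 month was Tpp1+/- in both regions. The mice of 2 months were all male, and at 1 and 3 months 1 mouse in each group was female. No cell type was isolated, and p-values measure the spread between these mice. In these tissue samples fewer granule cells and less RNA per granule cell cannot be told apart.

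Granule cells receive mossy fibre input and send parallel fibres onto Purkinje cells. A mature granule cell carries a GABA-A receptor with the alpha6 subunit and an NMDA receptor with the GluN2C subunit, and it secretes cerebellins that bridge its parallel fibre terminals to glutamate receptors on the Purkinje cell. Its identity is laid down by transcription factors of the bHLH, Zic, BarH-like and ETS families, several of which are also used elsewhere in the brain.

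Tpp1 itself was measured first, as a check of the labels. In Cb its level was 89.4, 87.7 and 55.8 CPM (counts scaled to library size, with TMM factors within each age) in the 1-month controls, the lowest being the Tpp1+/- mouse, against 16.7, 20.1 and 19.9 CPM in Tpp1-/- mice. The groups were also apart in F/M and at both later ages, with log2 fold changes between -2.12 (SE 0.06) and -1.31 (SE 0.08). The residual reads in Tpp1-/- libraries map to the targeted gene, and which part of it they cover was not examined.

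The window just upstream of the transcription start was examined for the members whose reads were nearly restricted to Cb, Gabra6, Cbln3 and Fat2. These are the 250 bases before the RefSeq start (GRCm38.p6, all 3 on the minus strand, written 5′ to 3′). Capitals mark the E-box CANNTG, which bHLH factors such as Neurod1 bind, the nuclear factor I half-site TTGGC and the homeodomain core TAATTG, each searched on both strands, where matches may overlap. The Cbln3 and Fat2 starts lie inside the longer gene models used for counting, whose 5′ ends are at 55884392 and 55336564. Whether transcripts in Cb begin at these starts was not tested, so the windows may not be the promoters in use.
Gabra6, chr11:42321073-42321322: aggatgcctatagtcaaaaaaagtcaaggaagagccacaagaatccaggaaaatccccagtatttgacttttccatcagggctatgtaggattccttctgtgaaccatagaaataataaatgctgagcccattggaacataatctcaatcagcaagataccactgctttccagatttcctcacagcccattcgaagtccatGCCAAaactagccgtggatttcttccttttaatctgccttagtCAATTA
Cbln3, chr14:55884257-55884506: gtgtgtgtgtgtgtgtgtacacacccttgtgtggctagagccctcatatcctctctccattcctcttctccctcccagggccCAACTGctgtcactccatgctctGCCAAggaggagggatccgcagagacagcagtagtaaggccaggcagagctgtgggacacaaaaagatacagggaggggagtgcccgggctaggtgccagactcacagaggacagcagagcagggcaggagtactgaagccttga
Fat2, chr11:55312258-55312507: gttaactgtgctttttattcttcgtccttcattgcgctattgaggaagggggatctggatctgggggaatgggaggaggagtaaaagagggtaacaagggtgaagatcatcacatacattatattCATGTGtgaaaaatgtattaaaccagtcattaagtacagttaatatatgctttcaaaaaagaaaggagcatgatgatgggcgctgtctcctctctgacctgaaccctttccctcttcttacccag
The E-box was found 1 time in the Cbln3 window, 1 time in that of Fat2 and 0 times in that of Gabra6, whereas 66.2% of all 32851 RefSeq windows of this length held it. The Gabra6 window held 1 TTGGC and 1 TAATTG, present in 41.5% and 7.17% of all windows, and the Cbln3 window held 1 TTGGC. These 3 windows therefore had no motif of the 3 in common. Windows for Neurod1, Zic1, Grin2c, Barhl1 and Etv1 were also listed, so 8 of the 10 members had one, and none is given here for Cbln1 and Zic2.

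In Cb controls the members covered a wide range of abundance. Per kilobase of exon, the 1-month control means ran in the order Gabra6 (352 CPM per kb), Cbln3 (343), Cbln1 (263), Zic1 (189), Neurod1 (162), Zic2 (78.5), Fat2 (70.5), Grin2c (46.8), Etv1 (39.1) and Barhl1 (3.13). Gabra6 and Cbln3 ranked 33 and 35 of the 17916 genes tested, whereas Barhl1, a BarH-like homeobox gene of granule cell precursors, ranked 9578. Neighbours whose 3 control values overlapped at 1 month were Gabra6 and Cbln3, Zic2 and Fat2, and Grin2c and Etv1. The first 6 places were held by the same members in the same order at 2 and 3 months. At 2 months Zic1 overlapped Neurod1 and Fat2 overlapped Grin2c, and at 3 months Fat2 fell between Grin2c (48.4 CPM per kb) and Etv1 (29.4), overlapping both. The 10 genes together took between 0.565% and 0.751% of all counted reads in the 18 Cb libraries, against 0.0211% to 0.0260% in the 18 F/M libraries.

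The comparison of control Cb with control F/M asked how far each member is restricted to the cerebellum. All 10 members were higher in Cb at each age by edgeR's quasi-likelihood test (adjusted p under 0.1 and fold change of at least 1.5), where 15.8%, 17.4% and 17.8% of all genes tested were higher at 1, 2 and 3 months. The adjusted p-values of the members lay between 2.75e-21 and 1.37e-08. Pooled over the 3 controls, Gabra6 was 799 times higher in Cb than F/M at 1 month (95% counting interval, exact, 632 to 1025, from 70 F/M reads), 1179 times at 2 months (886 to 1605) and 9027 times at 3 months (3868 to 27801, from only 5 F/M reads). Such intervals cover counting error only. Cbln3, a cerebellin that needs Cbln1 to be secreted, was 645, 937 and 1563 times higher in Cb, and Fat2, a giant cadherin of parallel fibres, 719, 1047 and 1251 times. The 1-month ratios of these 3 genes rested on F/M control replicate 1, which held 52 of the 70 Gabra6 reads. Without that library, left out after the data were seen, the ratios were 2228 (1409 to 3759) for Gabra6, 1432 (1095 to 1912) for Cbln3 and 1317 (951 to 1881) for Fat2. For Cbln3 the counting intervals at 1 and 3 months then overlapped. Those of Fat2 overlapped already with all controls (586 to 892 and 866 to 1883). The 3-month ratio of Gabra6 was 14388 (3983 to 118813, from 2 reads) without F/M control replicate 3, and no other omission of a control moved a member's ratio by over 1.5 times. The remaining members were much less restricted. Cbln1, the cerebellin that links parallel fibres to the GluD2 receptor, was 33.4 to 40.1 times higher in Cb, Neurod1 28.0 to 36.4 times, Barhl1 20.5 to 26.9 times and Zic1 13.9 to 22.9 times. Zic2 was 11.6 times higher at 3 months and 13.2 times at 1 month, and its log2 difference was largest at 2 months (4.18, SE 0.12). Grin2c, encoding GluN2C, was 5.43 to 6.55 times higher, and the ETS factor Etv1 4.28 to 6.18 times.

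The comparison of Tpp1-/- with control Cb asked whether granule cell transcripts change as the disease progresses. No member was called at any age: 0 of 10 passed edgeR's test at 1, 2 and 3 months, where 0.0112%, 2.05% and 0.859% of all genes were called, and 0 passed with DESeq2 or limma-voom. At an unadjusted p under 0.05 there were 0, 1 and 1 members, against 7.66%, 9.67% and 6.49% of all genes. Control and Tpp1-/- values did not overlap for 0, 2 and 2 members, against 7.97%, 18.1% and 8.66% of all genes. The members' median log2 fold change was -0.04, 0.04 and 0.04, that of all genes 0.01, 0.00 and 0.00. Single estimates ran from -0.26 to 0.25, with standard errors between 0.06 and 0.31.

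**Figure D1:**
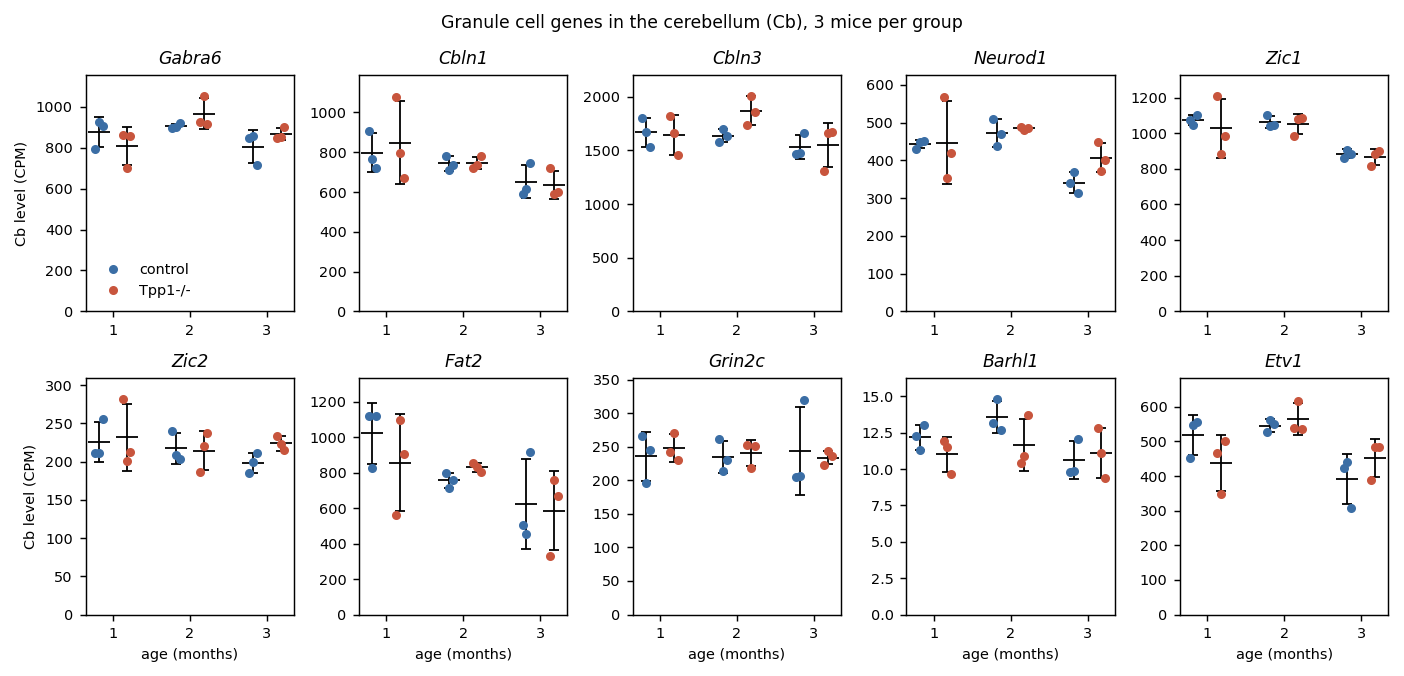
Level of each of the 10 genes in Cb (CPM, vertical axes from 0) against age in months; points are mice, horizontal marks and bars the group mean and SD (n = 3), blue control and red Tpp1-/-. Controls and Tpp1-/- mice overlap except for Cbln3 and Fat2 at 2 months and Neurod1 and Zic2 at 3 months, and the Fat2 panel shows the widest scatter within groups.

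Gabra6 (ENSMUSG00000020428.13, chr11:42306437-42321072, minus strand, GRCm38), encoding the granule cell's GABA-A receptor alpha6 subunit, stood at 793, 926 and 909 CPM in the 1-month controls and 863, 702 and 860.1 CPM in the Tpp1-/- mice. At 2 months the controls were at 897, 903 and 919 CPM and the Tpp1-/- mice at 928, 1055 and 918, and at 3 months the values were 846, 857 and 715 against 849.7, 851 and 900.1 CPM. The groups overlapped at every age. Its log2 fold changes were -0.12 (SE 0.25), 0.09 (SE 0.07) and 0.11 (SE 0.10), with adjusted p-values of 0.908, 0.750 and 0.958. The larger error at 1 month came with the shared fit over both regions, and the 6 Cb libraries alone gave -0.11 (SE 0.13).

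Grin2c (ENSMUSG00000020734.13, chr11:115249169-115267243, minus strand), the NMDA receptor subunit that replaces GluN2B as granule cells mature, ranged from 196 to 266 CPM in 1-month controls and from 230.3 to 271 CPM in Tpp1-/- mice. At 2 months the ranges were 214 to 261 and 219 to 253 CPM, and at 3 months 205 to 319.7 and 223 to 243 CPM, so the groups overlapped at every age. Its estimates, 0.07 (SE 0.10), 0.04 (SE 0.10) and -0.06 (SE 0.14), were within their standard errors. Of 5 other NMDA receptor subunits, Grin2d alone passed an adjusted p under 0.1, at 2 months, as did 3.08% of all genes (2.72% lower). It fell by 0.41 on the log2 scale (SE 0.10, adjusted p = 0.0230 in edgeR's test), short of the fold minimum. Grin2d was at 14.5 to 15.9 CPM in those controls and 11.0 to 12.3 CPM in Tpp1-/- mice.

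Cbln3 (ENSMUSG00000040380.14, chr14:55878913-55884392, minus strand) was the member nearest to a call in Cb. At 2 months it was at 1578, 1697 and 1633 CPM in controls and 1737, 2009 and 1861 CPM in Tpp1-/- mice. Every Tpp1-/- value lay above every control value, as it did for 7.66% of all genes tested at this age. The log2 fold change was 0.19 (SE 0.07, unadjusted p = 0.0117, adjusted p = 0.244 in edgeR's test), and the adjusted p lay between 0.105 and 0.682 over the alternatives. No such separation was seen at 1 month (-0.02, SE 0.31) or at 3 months (0.02, SE 0.12). Its secretion partner Cbln1 (ENSMUSG00000031654.16, chr8:87468405-87472609, minus strand) averaged 744 ± 36.3 CPM in the 2-month controls and 746 ± 30.2 CPM without Tpp1 (SD, n = 3), with log2 fold changes of 0.09 (SE 0.14), 0.00 (SE 0.06) and -0.03 (SE 0.12) from 1 to 3 months.

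The family member Cbln2 behaved differently from both granule cell cerebellins at 2 months. It fell from 7.93 to 10.6 CPM in controls to 0.408 to 1.42 CPM in Tpp1-/- Cb, by 3.33 on the log2 scale (SE 0.22, adjusted p = 1.86e-08 in edgeR's test), and was the single gene of 7 cerebellin relatives and partners to pass. Markers of midbrain and thalamus moved with it: 4 of 9 such genes were called lower in these Tpp1-/- libraries, against 1.80% of all genes, and 5 without the fold minimum, against 2.72%, among them Tcf7l2 (31.8 to 37.7 CPM against 3.56 to 5.08 CPM) and Slc17a6, and their summed level was 237 to 271 CPM in controls and 147 to 177 CPM in Tpp1-/- mice. Choroid plexus markers moved the other way, with 4 of 8 called higher, against 0.250% of all genes, and 5 without the fold minimum, against 0.360%. Their sums were 951 to 1248 CPM against 1561 to 1734 CPM. The part of either in the members' values was not tested, and 0 of 10 members passed beside them.

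Fat2 (ENSMUSG00000055333.14, chr11:55250609-55336564, minus strand, 14528 exon bases) varied most within groups. At 1 month it was at 1123, 826 and 1122 CPM in controls and 562, 1101 and 908 CPM in Tpp1-/- mice, and at 3 months at 503, 453 and 916 CPM against 333, 757 and 667 CPM. At 2 months the values were close together, 797, 715 and 759 CPM in controls and 853, 834 and 806 CPM in Tpp1-/- mice, which did not overlap. Its estimates were -0.26 (SE 0.26), 0.13 (SE 0.07) and -0.09 (SE 0.28), with adjusted p-values of 0.783, 0.588 and 0.992. A change of the size estimated at 1 month was thus no larger than its own error.

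Among the transcription factors, Neurod1 (ENSMUSG00000034701.9, chr2:79452521-79456751, minus strand), a bHLH factor needed for granule cell survival and differentiation, had the largest estimate at 3 months. It was at 341, 369 and 313 CPM in controls and 448, 371 and 401 CPM in Tpp1-/- mice. The groups did not overlap, though the highest control and the lowest Tpp1-/- value were only 369 and 371 CPM, and 4.46% of all genes were separated in that direction. The log2 fold change was 0.25 (SE 0.09, unadjusted p = 0.0175, adjusted p = 0.546 in edgeR's test). At 1 and 2 months it was 0.01 (SE 0.14) and 0.04 (SE 0.08). Of its 2729 exon bases 201 are shared with Cerkl on the same strand.

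Zic1 (ENSMUSG00000032368.14, chr9:91358058-91365810, minus strand) and Zic2 (ENSMUSG00000061524.8, chr14:122475435-122479852, plus strand) encode zinc finger factors that keep granule cell precursors dividing and persist in mature cells. Zic1 was at 1039.6 to 1104 CPM in 2-month controls and 986 to 1084 CPM in Tpp1-/- mice, with estimates of -0.06, -0.02 and -0.03 (SE 0.11, 0.09 and 0.09). Zic2 was at 185, 199 and 211 CPM in 3-month controls and 234, 223 and 215 CPM in Tpp1-/- mice, groups that did not overlap, yet the log2 fold change of 0.18 (SE 0.12) had an adjusted p of 0.911. Zic1 shares 60 exon bases with Zic4 on the opposite strand, and counting was set to use strand. The paired genes Zic4 and Zic5 did not pass in Cb at any age.

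Barhl1 (ENSMUSG00000026805.14, chr2:28907679-28916668, minus strand) was at 13.2, 14.8 and 12.7 CPM in 2-month controls and 10.4, 10.9 and 13.7 CPM in Tpp1-/- mice, overlapping groups with a log2 fold change of -0.23 (SE 0.12, adjusted p = 0.584). At 1 and 3 months it was -0.15 (SE 0.18) and 0.07 (SE 0.15). Etv1 (ENSMUSG00000004151.17, chr12:38779380-38870484, plus strand), an activity-dependent factor of maturing granule cells, was at 453, 547 and 557 CPM in 1-month controls and 467, 347 and 500.0 CPM in Tpp1-/- mice. Its estimate was negative at 1 month (-0.25, SE 0.12, adjusted p = 0.630) and positive at 3 months (0.21, SE 0.13, adjusted p = 0.896).

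**Figure D2:**
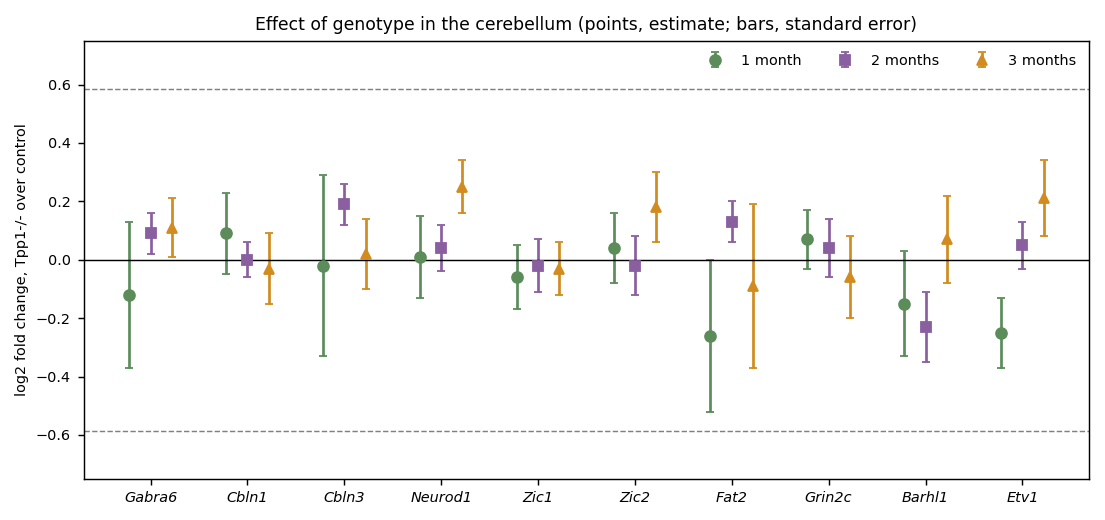
Log2 fold change of Tpp1-/- over control in Cb for each gene at 1, 2 and 3 months (points, edgeR estimate; bars, standard error; dashed lines, a fold change of 1.5 in either direction). All 30 points lie between the dashed lines, and none passed the adjusted threshold.

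Whether the effect of genotype in Cb differed between ages was tested across all 18322 genes of the joint model. No member passed for any pair of ages (0 of 10, edgeR), where 1.28%, 0.458% and 1.44% of all genes passed for 2 against 1 month, 3 against 1 month and 3 against 2 months, and the number at an unadjusted p under 0.05 was 0, 1 and 0 (8.85%, 7.91% and 6.41% of genes). That 1 gene was Etv1, whose effect at 3 months exceeded that at 1 month by 0.46 on the log2 scale (SE 0.17, unadjusted p = 0.0120, adjusted p = 0.448). Without Tpp1-/- replicate 1 of 3 months the difference was 0.55 (adjusted p = 0.0630), so this library decided on which side of the threshold it fell. The ages were counted against different annotation releases and with different settings, so a change of level from age to age, such as that of Fat2 in controls (1024, 757 and 624 CPM), cannot be told apart from processing.

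The other granule cell genes listed beside the members also gave no call in Cb. Of 16 (among them Pax6, Gabrd, Grm4, Reln, Calb2, Meis1 and Cdh15), 0 passed an adjusted p under 0.1 in Cb at any age, with median log2 fold changes of -0.03, 0.04 and 0.03 and 0, 3 and 1 genes at an unadjusted p under 0.05 in edgeR's test, against the 7.66%, 9.67% and 6.49% of all genes. At 2 months 4 of 16 had every Tpp1-/- value above every control, against 7.66% of all genes, among them Pax6, a paired-box factor of granule cell precursors, at 109.9 to 112 CPM in controls and 122 to 131 CPM in Tpp1-/- mice (log2 fold change 0.20, SE 0.07, adjusted p = 0.213). Markers of Purkinje cells (0 of 8), unipolar brush cells (0 of 2), interneurons (0 of 5, not limited to the molecular layer), granule cell precursors (0 of 3 tested) and endothelium (0 of 4) also gave no call in Cb. At most 3 genes of a list had an unadjusted p under 0.05. These included both unipolar brush cell genes at 2 months, Lmx1a (0.57, unadjusted p = 0.0155) and Eomes (-0.37, unadjusted p = 0.0344). Of 10 microglial markers 6 were called higher at 3 months, against 0.673% of all genes, and 8 were higher without the fold minimum, against 0.714%. The astroglial Gfap was also called higher (1.77, SE 0.12, adjusted p = 2.82e-06). Of the remaining lists, 0 of 6 oligodendrocyte genes were called and 1, Mog, was lower at 2 months without the fold minimum (-0.34, SE 0.08, adjusted p = 0.0238), 0 forebrain genes passed (8 tested at 1 and 2 months, 7 at 3 months), and 0 of 5 hindbrain genes were abundant enough to be tested.

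Mice of a group differed most for Fat2. After centring on group means, the within-group SD of log2 CPM in Cb was 0.41 for Fat2, larger than for 98.2% of 12243 genes, whereas it was 0.12 for Gabra6 and 0.11 for Zic1. Across the 18 Cb libraries, the deviation of Fat2 followed each library's trend with exon length (r = 0.89 over 18 libraries that share their 6432 reference genes). In Tpp1-/- replicate 1 of 3 months, levels changed by -0.244 log2 units per doubling of exon length and Fat2 deviated from its group mean by -0.73, and in Tpp1-/- replicate 2, with a trend of 0.141, it deviated by 0.45. Control replicate 3 of that age, where Fat2 deviated by 0.63, had a smaller trend with length (0.055) and the steepest with GC content (0.27 per 10 percentage points). Grin2c, with 62.1% GC in its longest transcript, followed the libraries' trend with GC content (r = 0.89), and Gabra6 (39.7% GC) and Etv1 (39.8% GC) followed it in the opposite sense (r = -0.86 and -0.87). Gabra6 and Etv1 deviated together (r = 0.91), and Gabra6 and Grin2c in opposite directions (r = -0.78).

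**Figure D3:**
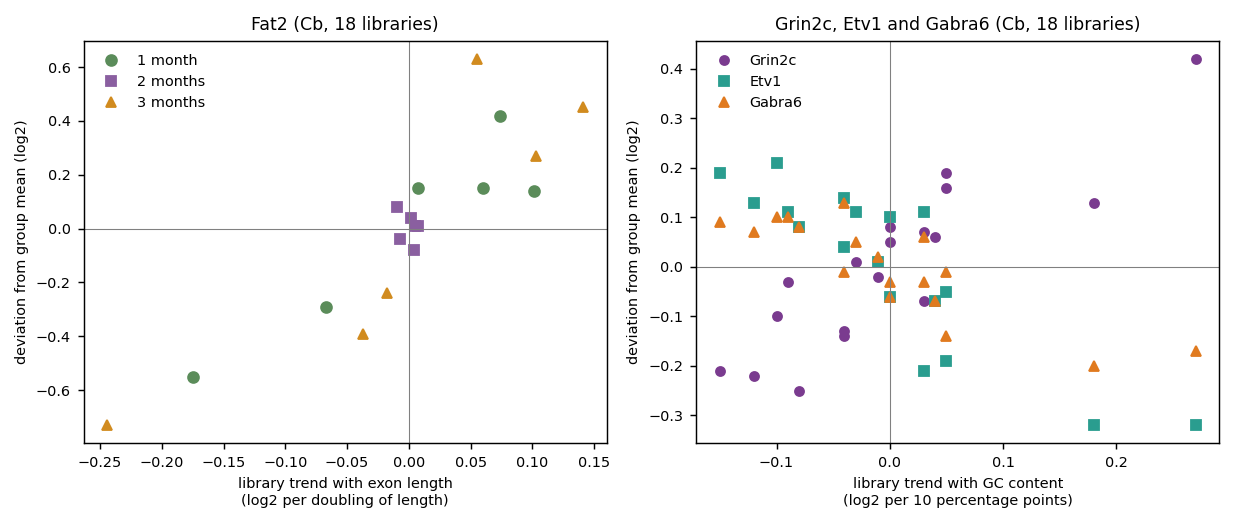
Deviation of a gene from its group mean in each of the 18 Cb libraries (log2) against that library's trend with exon length for Fat2 (left) and with GC content for Grin2c, Etv1 and Gabra6 (right). Fat2 and Grin2c rise and Etv1 and Gabra6 fall along the trend, and the libraries of 2 months lie near 0 for Fat2.

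Removing those trends, an alternative added after the data were seen, narrowed the within-group SD of Fat2 from 0.41 to 0.23, of Grin2c from 0.20 to 0.11 and of Neurod1 from 0.17 to 0.10, and left Zic1 at 0.11. The Cb estimates then lay closer to 0 for Etv1 at 1 month (-0.02, SE 0.10) and for Gabra6 at 3 months (-0.00, SE 0.08). They lay farther from 0 for Grin2c at 2 months (0.18, SE 0.08, unadjusted p = 0.0309, adjusted p = 0.381) and for Barhl1 at 1 month (-0.27, SE 0.17). Neurod1 at 3 months became 0.18 (SE 0.05, adjusted p = 0.197), and still 0 of 10 members were called in Cb at any age, where 0.00558%, 2.00% and 0.976% of genes were.

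Among genes outside the set, those whose deviations were most like the members' mean over the 18 Cb libraries were Lrrc4 (r = 0.92), Rnf44 (0.92), Mief1 (0.87), Mtss1l (0.86) and Slc35f3 (0.85), out of 12243 genes. For Gabra6 over the 18 F/M libraries they were Phldb1 (0.85), Mum1 (0.84), Trpm4 (0.84), Adamtsl5 (0.82) and Zfp512b (0.81), with Gabra6 itself at only 1 to 52 reads there. The libraries share their trends with length and GC content, so these values describe likeness across libraries alone.

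Set against their Cb level, Gabra6, Cbln3 and Fat2 were far lower in F/M than the other 7 members. Expressed as a percentage of the Cb control mean of the same age, the median over 18 F/M libraries was 0.0238% for Gabra6, 0.0719% for Cbln3 and 0.0824% for Fat2, and it was 2.57% for Cbln1, 3.05% for Neurod1, 4.46% for Barhl1, 5.61% for Zic1, 7.28% for Zic2, 15.9% for Grin2c and 18.1% for Etv1. No F/M library held Gabra6, Cbln3 or Fat2 above 0.369% of the Cb level, and none held any of the other 7 below 1.02%. The 7 genes exceeded the Gabra6 percentage in every F/M library. In absolute level Barhl1 was also scarce in F/M, at 3 to 26 reads per library. Its 1-month control mean there was 0.513 CPM, against 1.22 for Gabra6, 2.83 for Cbln3 and 1.56 for Fat2. The part of cerebellar tissue carried over at dissection in these levels was not tested. Among Purkinje cell genes the median F/M percentage also ranged widely, from 0.0550% for Pcp2, with 0 to 8 reads per library, to 0.491% for Ppp1r17, 1.03% for Car8 and 5.68% for Slc1a6.

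**Figure D4:**
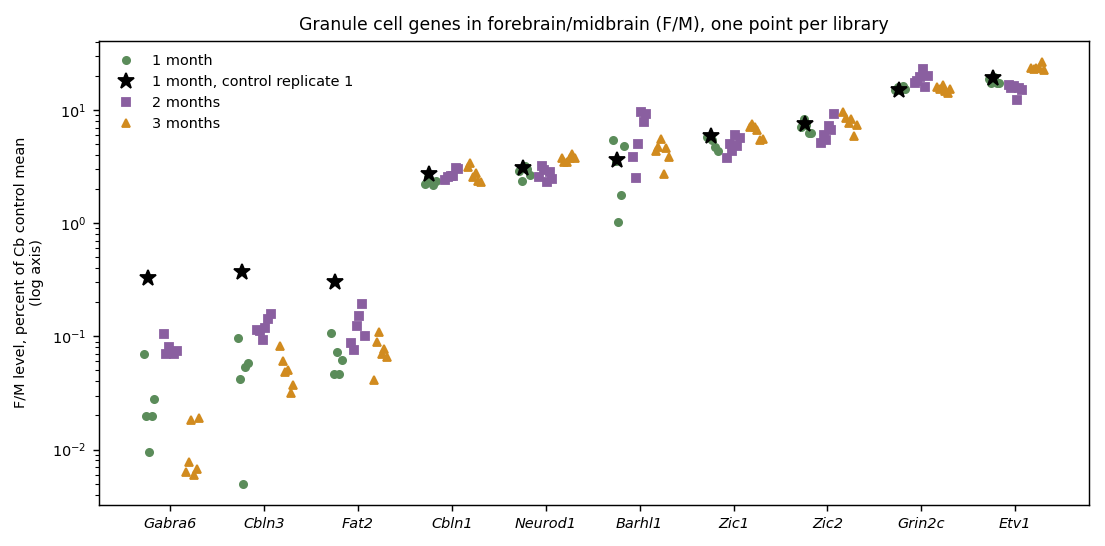
F/M level of each gene as a percentage of its Cb control mean of the same age (log axis), 1 point per library (circles, squares and triangles for 1, 2 and 3 months), with control replicate 1 of 1 month as a star. Gabra6, Cbln3 and Fat2 lie at or below 0.369% in all 18 libraries, the star is the highest point for each of these 3, and the other 7 genes lie at or above 1.02%.

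The F/M library of control replicate 1 at 1 month stood apart for Gabra6, Cbln3 and Fat2. Gabra6 was at 2.88, 0.616 and 0.174 CPM in the 1-month F/M controls (52, 14 and 4 reads) and 0.0832, 0.172 and 0.244 CPM in Tpp1-/- mice (2, 4 and 5 reads). Cbln3 was at 6.15, 1.63 and 0.695 CPM against 0.0832, 0.903 and 0.976 CPM, and Fat2 at 3.10, 1.10 and 0.478 CPM against 0.749, 0.473 and 0.634 CPM. In that library the 3 genes stood at 0.329%, 0.369% and 0.303% of their Cb level, the highest among the 6 libraries. Other cerebellar genes differed in this respect: Pcp2 (0.194%, 6 reads), Ppp1r17 (0.727%), Car8 (1.51%) and Cdh15 (4.95%) were also highest there, Slc1a6 (5.60%) was not, and Gdf10 (3.87%) was lowest there. The log2 fold changes at 1 month, -2.74 (SE 0.85) for Gabra6, -2.05 (SE 0.68) for Cbln3 and -1.24 (SE 0.62) for Fat2, had adjusted p-values of 1.00, and without that library they were -1.25, -0.86 and -0.34. Called members in F/M at 1 month were 0 of 10 (0.0112% of all genes, 3 members and 1.89% of genes at an unadjusted p under 0.05, and 0 with DESeq2 or limma-voom). Gabra6 was too low there to be tested in the 6 F/M libraries alone.

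Gabra6 reads also differed between the F/M libraries of 2 and 3 months in both genotypes. They amounted to 7 to 20 reads per library at 2 months, or 0.0692% to 0.104% of the Cb level, and to 1 to 3 reads at 3 months, or 0.00601% to 0.0191%. At 3 months all 6 libraries were thus at or under the floor of 3 reads, and no fold between genotypes is given. Cbln3 was at 0.0928% to 0.158% and at 0.0317% to 0.0830% at these ages. Age cannot be told apart here from dissection or processing.

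At 2 months the F/M comparison held the single call of a member between genotypes. Barhl1, which outside the cerebellum is known from hypothalamic and hindbrain neurons, was at 0.517, 0.338 and 0.680 CPM in controls (11, 7 and 13 reads) and 1.29, 1.07 and 1.24 CPM in Tpp1-/- mice (26, 17 and 13 reads). Every Tpp1-/- value was above every control, as for 9.45% of all genes, and the log2 fold change was 1.24 (SE 0.31, adjusted p = 0.0594 in edgeR's test). This was 1 of 10 members, against 0.737% of all genes called and 0.650% called higher. At an unadjusted p under 0.05 there were 6 members, against 16.9% of all genes, and 5 members had groups that did not overlap, against 18.3%. Barhl1 in Cb was -0.23 at the same age, and the difference between regions, -1.47 (SE 0.33, adjusted p = 0.0221), passed the test of the difference itself, as it did for 2.97% of all genes. The F/M call rested on few reads. It was lost on leaving out control replicate 2 (adjusted p = 0.155), control replicate 3 (0.103), Tpp1-/- replicate 1 (0.292) or Tpp1-/- replicate 3 (0.170), and with the 6 F/M libraries alone (0.159).

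Zic2 and Zic1 passed the adjusted threshold at 2 months without the fold minimum, together with Barhl1 making 3 of 10 members higher, against 2.26% of all genes higher and 3.17% in either direction. Zic2 was at 11.0, 13.1 and 11.8 CPM in controls and 15.8, 14.5 and 20.0 CPM in Tpp1-/- mice, groups that did not overlap (0.46, SE 0.13, adjusted p = 0.0836). Zic1 was at 39.9, 53.3 and 46.1 CPM against 64.5, 50.9 and 60.4 CPM, groups that overlapped (0.34, SE 0.10, adjusted p = 0.0992). DESeq2 gave adjusted p-values of 0.0190 for Zic2 and 0.0288 for Zic1, limma-voom 0.134 and 0.0972, and removal of the length and GC trends 0.0323 and 0.110. With the replicate number as a block neither passed (adjusted p = 0.128 for Zic2 and 0.156 for Zic1), and leaving out single libraries gave 0.0493 to 0.314 and 0.0270 to 0.396. Of the genes nearly restricted to Cb, none passed. Gabra6 was at 0.627 to 0.940 CPM in these controls and 0.630 to 0.669 CPM in Tpp1-/- mice (-0.25, SE 0.27, adjusted p = 0.756). Fat2 was at 0.579 to 0.942 against 0.764 to 1.45 CPM (0.68, SE 0.26, unadjusted p = 0.0177, adjusted p = 0.198), an estimate above those of Zic2 and Zic1. Cbln3 was at 1.52 to 1.88 against 1.94 to 2.58 CPM, groups that did not overlap (0.35, SE 0.18, adjusted p = 0.379).

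Genes of several lists passed an adjusted p under 0.1 in those F/M libraries, taken here without the fold minimum (2.26% of all genes higher and 0.905% lower). Of the 16 other granule cell genes, En2 and Zic4 were higher and Slc17a7 lower, and En2 alone was called with the fold minimum. En2, an engrailed gene of the dorsal midbrain and cerebellum, was at 0.846 to 1.11 CPM in controls and 1.82 to 2.46 CPM in Tpp1-/- mice (1.10, SE 0.23, adjusted p = 0.0280). The glycine transporter gene Slc6a5, on the interneuron list, was at 0.289 to 0.846 CPM against 1.49 to 4.03 CPM (2.26, SE 0.40, adjusted p = 0.0145), and Tcf7l2, a marker of thalamus and midbrain, rose by 0.50 (SE 0.10, adjusted p = 0.0210). The 9 midbrain and thalamus genes summed to 268 to 337 CPM in controls and 348 to 381 CPM in Tpp1-/- mice, with 1 of 9 passing, and the 8 forebrain genes to 677 to 694 CPM against 597 to 622 CPM, with Neurod6 lower. Choroid plexus genes were higher in 5 of 8. Of 8 Purkinje cell genes Ppp1r17 and Car8 were higher, of 5 astroglial genes Aqp4 (0.53, adjusted p = 0.00760) and Gfap (0.31, adjusted p = 0.0468), and of 3 tested precursor genes Top2a (0.73, adjusted p = 0.0723). The part of these markers in the values of Barhl1, Zic1 and Zic2 was not tested.

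**Figure D5:**
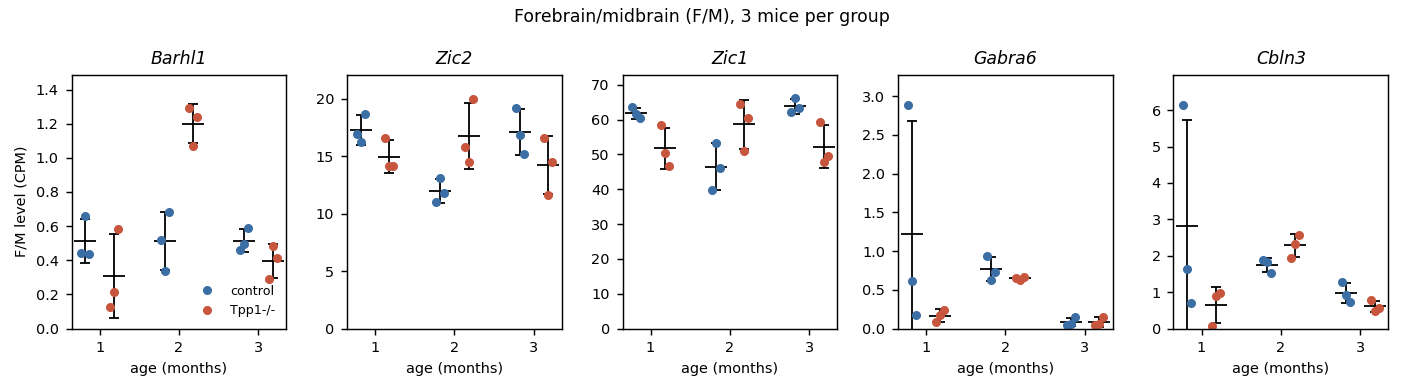
F/M level (CPM, vertical axes from 0) of Barhl1, Zic2, Zic1, Gabra6 and Cbln3 against age in months; points are mice, marks and bars the group mean and SD (n = 3), blue control and red Tpp1-/-. Barhl1 and Zic2 are higher in all 3 Tpp1-/- mice at 2 months, and the Gabra6 and Cbln3 panels are led by control replicate 1 of 1 month.

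At 1 and 3 months the F/M estimates of Zic1, Zic2 and Barhl1 were negative, and only that of Zic1 had an unadjusted p under 0.05. Zic1 was at 63.5, 61.6 and 60.4 CPM in 1-month controls and 58.3, 50.3 and 46.7 CPM in Tpp1-/- mice, and at 62.1, 66.2 and 63.2 CPM against 59.3, 47.9 and 49.5 CPM at 3 months. The Tpp1-/- values lay below all controls at both ages, as for 6.49% and 12.3% of all genes, but the adjusted p-values were 1.00 and 0.482 for log2 fold changes of -0.26 (SE 0.11) and -0.29 (SE 0.10). With only the 6 F/M libraries of 3 months compared, Zic1 passed an adjusted p under 0.1 without the fold minimum (-0.28, SE 0.07, adjusted p = 0.0193), as did 11.1% of all genes (5.22% lower), whereas 0.488% passed in the fit of 12 libraries. Zic2 was at -0.21 (SE 0.14) and -0.26 (SE 0.13), and Barhl1 at -0.79 (SE 0.43) and -0.39 (SE 0.33). Barhl1 had 3 to 15 and 6 to 12 reads per library, and at 3 months it was too low to be tested in the 6 F/M libraries alone. Called members in F/M at 3 months were 0 of 10 (0.464% of all genes, 2 members and 5.94% of genes at an unadjusted p under 0.05, and 0 with DESeq2 or limma-voom). Groups did not overlap for 1 member at 1 month and 2 at 3 months, against 14.8% and 24.1% of all genes. In the contrast between ages, added after the data were seen, the effect on Zic1 at 3 months was 0.62 log2 units lower than at 2 months (SE 0.15, adjusted p = 0.0872), where 0.393% of genes passed. No member passed for 2 against 1 month or for 3 against 1 month (0.0218% and 0.153% of genes), and 6, 0 and, for 3 against 2 months, 4 members had an unadjusted p under 0.05, against 8.81%, 5.41% and 8.12% of genes. Midbrain and thalamus markers had the same order, with sums of 362 to 374 CPM in 3-month controls and 276 to 310.1 CPM in Tpp1-/- mice. Of these 9 genes 1, Prkcd, was called lower at 3 months (-0.81, SE 0.15, adjusted p = 0.0363 in edgeR's test), against 0.0523% of all genes. The part of dissection in the Zic1 difference was not tested.

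The F/M differences of Etv1, Grin2c, Neurod1 and Cbln1 stayed below the fold minimum. Etv1, which layer 5 neurons of the cortex also express, was at 90.9, 86.2 and 88.7 CPM in 2-month controls and 67.0, 85.7 and 81.1 CPM in Tpp1-/- mice (-0.19, SE 0.08, adjusted p = 0.267), and at 90.0 to 91.9 against 89.1 to 105 CPM at 3 months. Grin2c, found outside the cerebellum in thalamus and astrocytes, was at 41.1 to 45.9 against 37.3 to 54.0 CPM at 2 months (0.10, SE 0.11). Neurod1, also a factor of hippocampal granule neurons, was at 11.8 to 12.8 against 12.8 to 13.9 CPM at 3 months (0.12, SE 0.11), with an estimate of -0.18 (SE 0.10) at 2 months. At 2 months Cbln1 averaged 18.8 ± 0.763 CPM with Tpp1 and 21.6 ± 1.73 CPM without it (SD, n = 3), groups that did not overlap (0.19, SE 0.08, adjusted p = 0.236). With the trends in length and GC content removed, the 2-month estimate was -0.29 for Etv1 (adjusted p = 0.0431 in edgeR's test) and 0.25 for Cbln1 (adjusted p = 0.0861), both under the fold minimum. Apart from Barhl1 at 2 months, no member's effect differed between Cb and F/M at an adjusted p under 0.1 at any age, where 0%, 2.97% and 0.00581% of all genes did at 1, 2 and 3 months.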

How the data were processed

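Total RNA from Cb and F/M was made into stranded poly(A) libraries and sequenced as single 50-base reads. The authors aligned reads with STAR 2.5.2b to mm10 and deposited whole-number counts per gene from featureCounts, per the file headers release 1.6.3 with GENCODE M21 at 1 month, 1.6.2 with M16 at 2 months and 1.6.2 with M18 at 3 months, with the strand setting 2 at 2 months and 1 at the other ages, although 1 stranded kit is stated. The headers also name fractional counting of multi-mapped reads, whereas all values are whole, and the submitters' processing notes give featureCounts as 1.26.1. The counts were used as deposited. Pooling was not stated, and 1 file held each of the 36 samples. Members and gene lists were chosen with earlier results of these data known.

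Each age was fitted separately in edgeR 4.0.16 (TMM, filterByExpr, quasi-likelihood test, 4 groups, 12 libraries), two-sided, with Benjamini-Hochberg adjustment over all genes tested. Genes were called where the adjusted p was below 0.1 and the fold change 1.5 or more; differences between regions or ages needed an adjusted p under 0.1. Standard errors were the estimate divided by the root of F. Effects between ages came from 1 model of 36 libraries. Log2 CPM used a pseudocount of 0.5. DESeq2 1.42.0 and limma 3.58.1 were alternatives, as were the scalings, filters, sex, block and single-library omissions. Counting intervals were exact 95% binomial. Scripts were tested on simulated data. Depth of 10609896 to 29942380 reads left Gabra6 in F/M at 1 to 52 reads. Named genes were the 10 members, at most 5 genes per list and comparison with an adjusted p under 0.1, the summed level of tissue lists, and the 5 most similar genes; Pax6 and Pcp2 were named after their values were seen. Some genes of the lists are not reported here. Same-numbered F/M libraries of 1 month deviated together (r of 0.159 to 0.464 over genes), which was not so in the other sets. The labels do not say whether libraries share an animal or a litter.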

Additional observations from a re-analysis of the deposited data

Results flagged for a closer look

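The effect of genotype on Barhl1 at 2 months was lower in Cb than in F/M by -1.47 on the log2 scale (SE 0.33, adjusted p = 0.0221 in edgeR's test of the difference; 0.00210 to 0.107 over the alternatives). The Tpp1-/- level was higher in 3 of 3 mice in F/M, from 13 to 26 reads per library.

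The effect of genotype on Zic1 in F/M differed between 3 and 2 months by -0.62 on the log2 scale (SE 0.15, adjusted p = 0.0872), with Tpp1-/- mice below all controls at 3 months and overlapping them at 2 months. This contrast was added after the data were seen, and it compares sets of libraries that were counted with different settings.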

How the results depend on the processing

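In Cb, 0 members were called under every alternative run at each age, and the sign of an uncalled estimate changed in 44 of 530 repeats. All 10 members remained higher in Cb than F/M in controls under every alternative. In F/M at 1 month, 0 members became 3 without a filter on low counts (Gabra6, adjusted p = 6.45e-09, Cbln3, 1.18e-15, and Fat2, 0.00677, all lower in Tpp1-/-), and the difference between regions went from 0 to 2. Most control reads of these genes came from F/M control replicate 1, with 52 of 70 for Gabra6, 111 of 164 for Cbln3 and 56 of 92 for Fat2. In F/M at 2 months, 1 member became 0 with only the 6 libraries compared or an adjusted p under 0.05, 3 with no fold minimum, and 0 to 1 on leaving out single libraries. The difference between regions at 2 months went from 1 to 3 without a filter, and lay between 0 and 2 on leaving out single libraries. It was lost without Tpp1-/- replicate 1 of F/M (adjusted p = 0.107), and Zic1 was added without control replicate 2 or Tpp1-/- replicate 2 of F/M. The difference between ages in Cb gave 0 to 1 members. The F/M percentages moved by less than 1 SD under each scaling and on leaving out single Cb controls. The cause of these changes was not tested. Shares of all genes passing without the filter or on leaving out single libraries are not given here, so these member counts have no background beside them. Gabra6 at 1 month and Gabra6, Fat2 and Barhl1 at 3 months could not be fitted in F/M alone, having too few reads.

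With the replicate block, 0 members were called in Cb at each age, 1 in F/M at 2 months (Barhl1, adjusted p = 0.0767), and none of 150 member values changed its side of the thresholds (adjusted p with the fold minimum, or adjusted p alone for differences between regions or ages). Outside F/M at 1 month, same-numbered libraries correlated between -0.283 and 0.437 over genes, so the numbers alone do not pair them.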
